A study of Mus musculus with 44 samples.

Results

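Bone marrow-derived macrophages of C57BL/6 mice were compared between Dnmt3a knockout (KO) and wild type (WT) cells, each with or without lipopolysaccharide (LPS). The regions described here are the 224 at which an NF-kB peak was listed in KO macrophages under both treatments and in WT macrophages under neither. They were chosen from the NF-kB peak lists themselves, so their NF-kB values in KO and WT are a description of that choice and carry no test. All 8 deposited peak lists, 4 for NF-kB and 4 for the transcription factor IRF3, were joined wherever peaks overlapped by at least 1 bp. That joining gave 5605 regions, of which 4724 held an NF-kB peak and 224 (4.00%) met the rule. The groups were KO with LPS, KO untreated, WT with LPS and WT untreated. All groups were differentiated from marrow in medium holding 10% serum and M-CSF at 30 ng/ml, and were used between day 8 and day 10. LPS was given at 10 ng/ml for 6 hours, and chromatin was sheared to between 100 and 300 bp. Each NF-kB list merges 3 samples, and the IRF3 lists merge 3, 2, 2 and 3 samples in the order of the groups given above. Replicate error cannot be read from merged lists, so no difference between lists was tested, and it is not stated whether the merged samples were separate animals. The labels name neither the NF-kB subunit that was precipitated nor the promoter or cell type behind the Dnmt3a deletion, and peak lists cannot show the deletion. Coordinates are in mm10, and intervals are exact 95% intervals that cover counting error only.

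LPS is sensed by Toll-like receptor 4 together with its partner MD-2. Signalling from this receptor releases NF-kB dimers from IkB proteins in the cytoplasm, after which they enter the nucleus and bind kappa B sites in enhancers and promoters of inflammatory genes. A second branch of the same receptor activates IRF3, which drives interferon genes. Dnmt3a places new methyl groups on cytosine in CG dinucleotides, so the CG content of a bound sequence bears on where the enzyme could act.

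Of the 224 regions, 1 covered the 250 bases before an annotated start of a protein-coding gene, and it covered those of both Commd1 and Zrsr1. That share of 0.446% was near the 0.375% of all 5605 regions. The sequences are shown because they are the only protein-coding promoters found in the set among the available promoter windows. The Commd1 window belongs to a start inside the gene, because both ends of the Commd1 span lay outside the region. Those windows were incomplete, so a promoter without one could not be found. COMMD1 restrains NF-kB by promoting the ubiquitination and loss of its RelA subunit, and Zrsr1 is an imprinted gene that lies within an intron of Commd1 and is expressed from the paternal allele. The sequences are from RefSeq, build GRCm38.p6, which is the assembly named mm10, and run 5′ to 3′ towards the start, with CG dinucleotides in capitals. Commd1 is read from the minus strand of chr11:22972867-22973116 and Zrsr1 from the plus strand of chr11:22971755-22972004.
Commd1: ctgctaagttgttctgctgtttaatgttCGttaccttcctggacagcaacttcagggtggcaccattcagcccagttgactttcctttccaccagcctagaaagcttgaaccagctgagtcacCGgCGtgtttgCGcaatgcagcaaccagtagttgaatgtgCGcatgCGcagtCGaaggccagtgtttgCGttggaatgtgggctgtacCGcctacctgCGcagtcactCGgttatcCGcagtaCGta
Zrsr1: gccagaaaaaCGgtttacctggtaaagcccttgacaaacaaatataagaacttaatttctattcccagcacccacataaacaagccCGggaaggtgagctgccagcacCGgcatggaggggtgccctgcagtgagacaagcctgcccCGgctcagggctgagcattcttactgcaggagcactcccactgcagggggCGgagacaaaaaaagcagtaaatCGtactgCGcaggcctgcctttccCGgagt
The Commd1 sequence held 13 CG dinucleotides and the Zrsr1 sequence 8, against a median of 10 over 21263 promoter windows of the same length. A smaller number was found in 57.6% of those windows for Commd1 and in 44.4% for Zrsr1. Both strands were searched for the 6 motifs named here, each counted on its own whether or not it overlapped another. The Commd1 window held 1 match to TGANTCA, found in 6.13% of all windows, and 1 match to TTGCNNAA, found in 9.09%. The Zrsr1 window held 1 match to CCCTC, found in 64.4% of all windows. Neither window held the kappa B consensus, the core of the interferon-stimulated response element or GAGGAAGT, which were in 4.18%, 2.96% and 2.23% of all windows. A match is a description of these letters and not a bound site.

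NF-kB peaks present in KO and absent in WT were more numerous in untreated cells than with LPS, and the 224 regions are where both contrasts met. With LPS, 890 of 5605 regions (15.9%) were listed in KO and not in WT. In untreated cells, 1976 regions (35.3%) were. The genotype with more regions differed by treatment among those held by a single NF-kB list. Of the 5605 regions, 547 were such in KO and 640 in WT with LPS, and untreated 1098 were in KO and 235 in WT. At each treatment the genotype with more of them had the longer list. These counts were not made at equal list length. The opposite pattern, listed in WT under both treatments and in KO under neither, held 56 regions (0.999%). Looking from the 1364 regions listed in both KO lists, 224 (16.4%, interval 14.5 to 18.5) had no WT NF-kB peak and 715 (52.4%) had one in both WT lists. A further 359 (26.3%) had one in the WT LPS list alone, and 66 (4.84%) in the untreated WT list alone. Of the 923 regions listed in both WT lists, 56 (6.07%, interval 4.62 to 7.81) had no KO NF-kB peak.

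The lists differed in length, and the excess of KO-alone regions was smaller once they were made equal. The NF-kB lists held 2376 peaks in KO with LPS, 3065 in untreated KO, 2494 in WT with LPS and 1462 in untreated WT. With each list reduced to its 1462 best-ranked peaks, 96 regions were listed in KO alone and 79 in WT alone. The ratio of KO-alone to WT-alone regions was thus 1.22 at equal length and 4 in the full lists. Of those 96 regions, 52 overlapped one of the 224, and 44 overlapped a WT NF-kB peak that the full lists hold at a worse rank. List length and genotype cannot be told apart in merged lists.

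**Figure D1:**
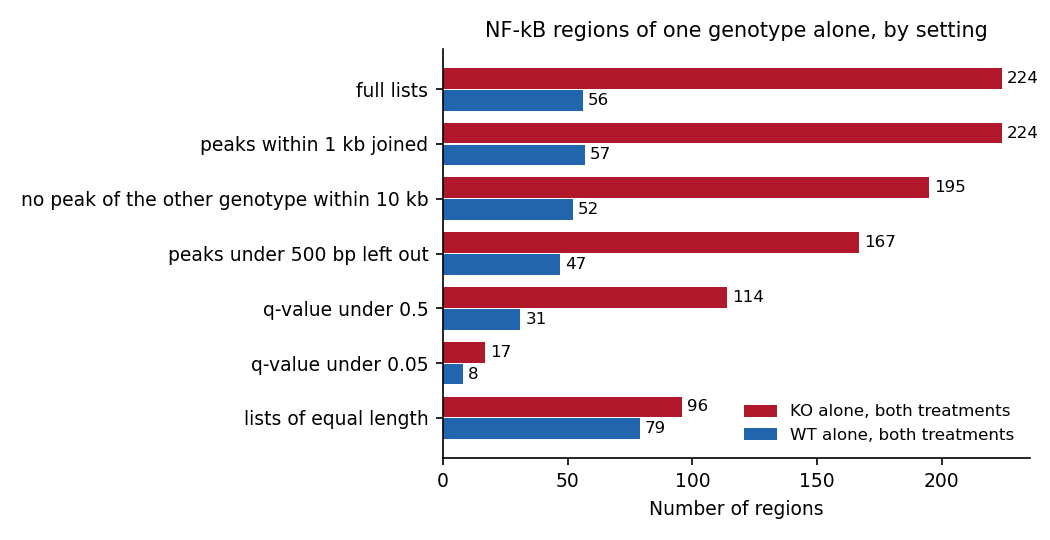
Number of regions with an NF-kB peak under both treatments in KO alone (red) and in WT alone (blue), horizontal axis, by the setting used to call a region (rows). KO-alone regions outnumber WT-alone regions in every row, by 224 to 56 in the full lists and by 96 to 79 in lists of equal length. Settings that drop WT peaks also call regions outside the 224, such as 68 of the 114 at q-value under 0.5.

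The 224 regions ranked low among the NF-kB peaks of KO with LPS and in the middle among those of untreated KO. Peaks were ranked by the deposited p-value, so that a percentile of 0 is the best peak of a list and 100 the worst. The median percentile of the 224 regions was 65.2 (interval 60.1 to 71.1) in the KO LPS list and 50.1 (45.1 to 55.2) in the untreated KO list. Over all regions that hold a peak of the list the medians were 47.0 with LPS and 48.5 untreated, and in the 715 regions of all 4 NF-kB lists they were 20.5 and 15.7. Only 43 of the 224 regions (19.2%) were in the better-ranked 50% of both KO lists, against 546 of the 715 (76.4%). The deposited q-value had a median of 0.77 with LPS and 0.42 untreated. It was under 0.05 at 3 regions with LPS and at 5 untreated, and at 1 region in both. The labels do not state what these q-values measure.

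Both treatments gave the 224 regions nearly the same signal value in KO, while rank and width leaned towards untreated cells. The deposited signal value is a score of unstated scale, and its median was 10.93 in the KO LPS list and 10.96 in the untreated KO list. It was higher with LPS at 119 regions and higher untreated at 105. The rank percentile was better with LPS at 88 regions and better untreated at 136. The peak was wider with LPS at 94 regions and wider untreated at 130. Ranks and signals come from lists of different lengths, so these counts show no change with LPS. Across the 224 regions the rank percentiles of both KO lists had a Spearman rho of 0.19, against 0.65 across the 715 regions of all 4 lists. For width and signal value the rho across the 224 was 0.66 and 0.51. These are descriptions over regions that share the same merged libraries.

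**Figure D2:**
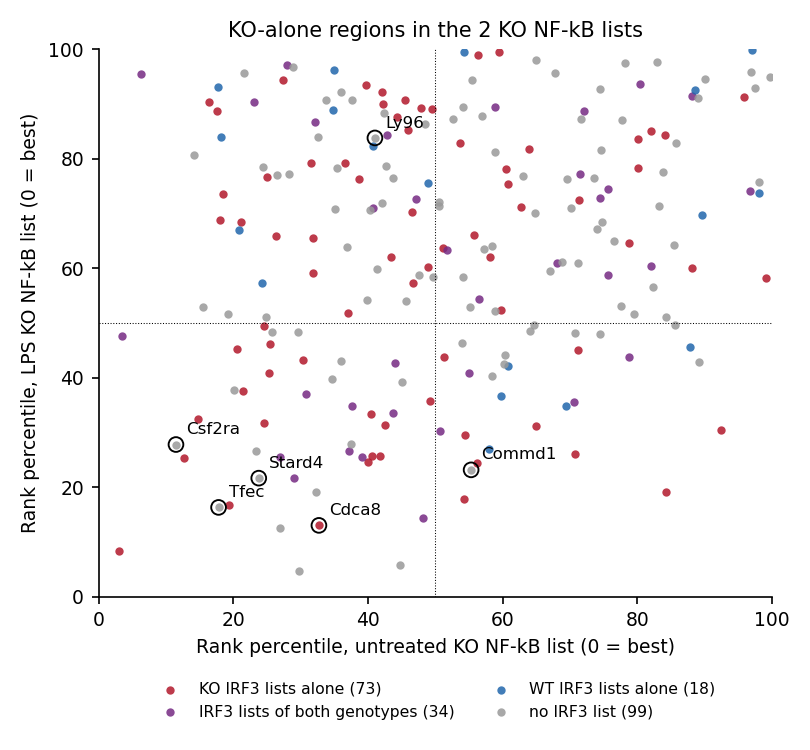
Rank percentile of the 224 KO-alone regions in the KO LPS NF-kB list (vertical) and the untreated KO NF-kB list (horizontal), 0 being the best peak, with 1 point per region coloured by the genotype whose IRF3 lists hold it and 6 regions ringed and named. Points spread over the whole square, and 43 of 224 lie at the lower left, where both percentiles are under 50.

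Most of the 224 regions were single, well separated peaks found at the same place under both treatments. At 222 of them a KO LPS peak overlapped an untreated KO peak directly, and at 2 they were joined only through other peaks. At 211 the overlap covered at least 50% of the shorter peak. The median peak width was 754 bp (interval 694 to 839) in KO with LPS and 900.5 bp (826 to 972) in untreated KO. The median region width was 1164.5 bp (1017 to 1390), with a range of 147 to 10349 bp, against 1583.5 bp in the 56 WT-alone regions and 2200 bp in the 715 of all 4 lists. The nearest WT NF-kB peak lay a median of 203210 bp away, within 10 kb at 29 regions and within 1 kb at 7.

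**Figure D3:**
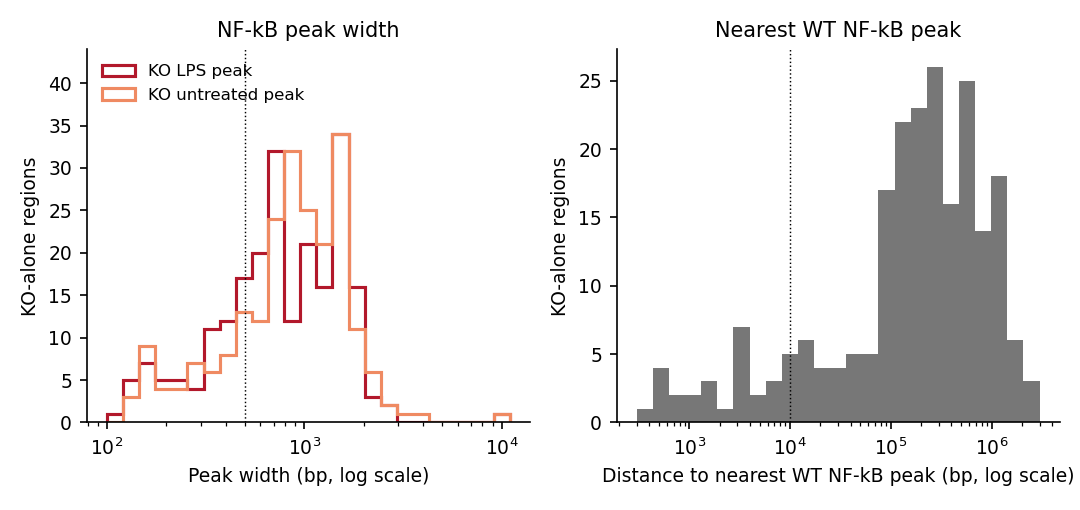
Left, histogram of NF-kB peak widths (bp, log scale) of the 224 regions in KO with LPS (dark red) and untreated KO (orange), with a dotted line at 500 bp. Right, histogram of the distance from each region to the nearest WT NF-kB peak (bp, log scale), with a dotted line at 10 kb, which 29 regions lie within.

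The 15 best-ranked of the 224 regions with a protein-coding gene within 100 kb are named here by their nearest gene, a label of position that no list or test ties to a function. Nearest to Csf2ra, the alpha chain of the GM-CSF receptor, was a region at chr19:61266667-61266831, 38206 bp from the gene. Its peak was 165 bp wide with a signal value of 12.2, a q-value of 0.251 and rank 660 in KO with LPS. In untreated KO it was 163 bp wide with a signal value of 11.7, a q-value of 0.0333 and rank 352. Both peaks started at the same base, and no IRF3 list held the region. The region at chr13:20674292-20676613 lay 65939 bp from Elmo1, which acts with Dock proteins to activate Rac during engulfment. The signal value there was 18.0 (rank 630) in KO with LPS and 14.3 (rank 1142) in untreated KO. It also held an untreated KO IRF3 peak of rank 633 and a WT LPS IRF3 peak of rank 687. The best-ranked region of the set with a gene within 100 kb lay on chr18:33219758-33221328, 5896 bp from Stard4, a sterol transfer protein. It had a signal value of 13.8 (q-value 0.178, rank 514) in KO with LPS and 13.3 (q-value 0.132, rank 729) in untreated KO. This region was also the most isolated of the 224, with the nearest WT NF-kB peak 2428691 bp away.

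Some of the 15 lay inside a gene. A region at chr5:33907130-33908761 fell inside Nelfa, a subunit of the negative elongation factor that pauses RNA polymerase II. It had a signal value of 13.4 (rank 607) in KO with LPS and 12.1 (rank 824) in untreated KO, and it held IRF3 peaks of KO with LPS (rank 697) and WT with LPS (rank 1165). The region at chr4:124931760-124934753 lay inside Cdca8, which encodes borealin of the chromosomal passenger complex. The signal value reached 15.9 (rank 309) in KO with LPS and 11.1 (rank 1003) in untreated KO. Here IRF3 was listed in KO under both treatments, at rank 941 with LPS and 776 untreated, and in neither WT list. The region at chr5:3436100-3438506 lay inside Cdk6, a kinase that drives entry into the cell cycle. Its signal value was 13.3 (rank 945) in KO with LPS and 10.9 (rank 1064) in untreated KO, and it had no IRF3 peak. Outside any gene, the region 52422 bp from Setbp1 at chr18:78696492-78697956 ranked better untreated, with a signal value of 12.2 (rank 603) in KO with LPS and 15.5 (rank 388) in untreated KO. It also held an IRF3 peak of KO with LPS, at rank 986. The other best-ranked regions had Acp7, Gm9573, Gm3629, Gm6351, Cmss1, Ssxb1, Asic4 or Slc25a13 as their nearest gene, with signal values between 6.05 and 17.7 in both KO lists.

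Regions at the ends of genes were few. Within 1 kb of an annotated end of a protein-coding gene lay 5 of the 224 regions (2.23%), against 2.44% of all 5605. The region over the Commd1 and Zrsr1 promoter windows, chr11:22971547-22973214, held an end of Zrsr1 and none of Commd1. It had a signal value of 13.7 (q-value 0.194, rank 550) in KO with LPS and 11.8 (q-value 0.498, rank 1696) in untreated KO. The start inside Commd1, at base 22972866, lay inside both KO peaks. The Zrsr1 start at base 22972005 lay inside the KO LPS peak and 135 bp outside the untreated KO peak. No IRF3 list held this region, and the nearest WT NF-kB peak was 434911 bp away. The region at chr1:16710472-16711353 began 867 bp from an end of Ly96, which encodes MD-2. The signal value was 12.6 (q-value 0.902, rank 1991) in KO with LPS and 12.0 (q-value 0.312, rank 1258) in untreated KO. With LPS it was among the worse-ranked of the 2376 KO peaks, and no IRF3 list held it. The other 3 regions lay 865 bp from Phka1, 210 bp from Psg29 and at the Zfp978 and Zfp991 spans.

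**Figure D4:**
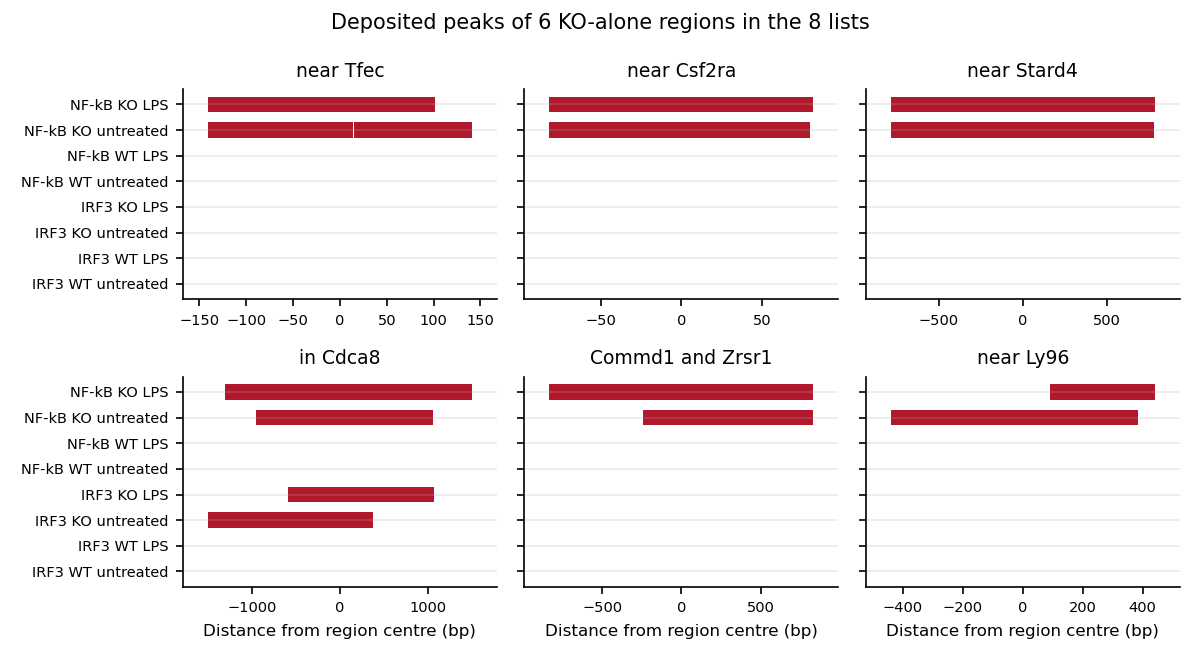
Deposited peaks (bars) of the 8 lists (rows) around the centre of 6 KO-alone regions, with distance from the region centre in bp on the horizontal axis. All 6 have bars in both KO NF-kB rows and none in the WT NF-kB rows, and the Cdca8 region alone among them has IRF3 bars, in both KO rows.

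Few listed genes had a region of the set nearby, as was so for protein-coding genes as a whole. The lists held genes of the pathway and its targets, macrophage identity genes, genes of DNA methylation and markers of other cell types. Of 187 listed genes that matched the annotation, Ly96 alone (0.535%) had a region of the set within 10 kb, against 84 of 21887 protein-coding genes (0.384%). At 50 kb it was still Ly96 alone, against 197 of all protein-coding genes (0.9001%). The 56 WT-alone regions were within 10 kb of 21 protein-coding genes (0.0959%), none of them listed. Ly96 was 1 of 31 genes of Toll-like receptor and NF-kB signalling. None of 14 genes of the NF-kB and IkB family, 46 NF-kB target genes, 27 interferon-stimulated genes, 24 macrophage identity genes or 15 genes of DNA methylation had one within 10 kb. None of the 5 T cell, 5 B cell, 6 neutrophil, 5 dendritic cell, 5 erythroid or 5 stromal marker genes did either. The 715 regions of all 4 NF-kB lists were within 10 kb of 296 protein-coding genes (1.35%), of which Fcgr1 was in the lists and no gene of NF-kB signalling or its targets was. Outside the rule for naming genes and chosen after its values were seen, a region at chr2:129611816-129613481 had Sirpa as its nearest gene, an inhibitory receptor of macrophages. Its signal value was 13.3 (rank 2308) in KO with LPS and 15.4 (rank 859) in untreated KO, and it held IRF3 peaks in both KO lists and the WT LPS list. With LPS that rank was near the worst of the 2376 KO peaks.

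A minority of the regions were narrow in both treatments. Both KO peaks were under 500 bp at 31 of the 224, with a median width of 188 bp in KO with LPS and 217 bp in untreated KO. No IRF3 peak was listed at 23 of these 31, and 11 lay in a gene. The best-ranked of them lay on chr6:16596482-16596764, 234163 bp from Tfec, a factor of the MITF and TFE family expressed in macrophages. Its signal value was 14.0 (q-value 0.124, rank 387) in KO with LPS and 12.0 (q-value 0.0847, rank 546) in untreated KO, where a second peak adjoined it. The region at chr3:58271593-58271769, with Tsc22d2 as its nearest gene at 142933 bp, had the best rank of the set in KO with LPS. Its signal value was 14.6 (q-value 0.0120, rank 109) in KO with LPS and 6.25 (q-value 0.199, rank 913) in untreated KO. The region near Gm16506 at chr14:43746814-43747111 went the other way, with a signal value of 8.31 (rank 1129) in KO with LPS and 18.4 (rank 108) in untreated KO. Inside Ppp1r9a, a neuronal scaffold of protein phosphatase 1, the signal value was 12.5 (rank 136) in KO with LPS and 6.05 (rank 1374) in untreated KO. Inside Jarid2, a cofactor of Polycomb repressive complex 2, the values were 6.14 (rank 871) and 5.03 (rank 1832) in the same order of treatments, with a WT LPS IRF3 peak of rank 1273. The remaining 4 of the 10 best-ranked narrow regions lay at Sfi1, at 2 places, and near Ppp4r3a and Gm10354.

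At the other extreme, the widest region spanned 10349 bp at chr4:3058916-3069264, 102819 bp from Vmn1r2, a vomeronasal receptor gene. It had the best rank of the set in untreated KO and was the only region with a q-value under 0.05 in both KO lists. There the signal value was 14.5 (q-value 0.0413, rank 197) in KO with LPS and 10.5 (q-value 0.00202, rank 91) in untreated KO. It held a KO LPS IRF3 peak of rank 264, and the nearest WT NF-kB peak was 2888 bp away. The region at chr3:3028759-3033338, whose nearest gene Hnf4g was 474692 bp away, had the highest signal values of the set, 26.9 in KO with LPS and 54.8 in untreated KO. Its ranks were not high, at 1822 (q-value 0.862) in KO with LPS and 767 (q-value 0.142) in untreated KO. Each KO list held 2 peaks there, and the best-ranked of them were 194 bp wide in KO with LPS and 4165 bp in untreated KO. The nearest WT NF-kB peak was 2355 bp away. No filter for repetitive or poorly mapped sequence was applied to the lists here, so such sequence was not set apart at these or other regions. The 5 widest regions also included the Hnf4g one, at 4580 bp, and those with Il1rapl1 (4817 bp), Sfi1 (3801 bp) and Atp8a2 (3311 bp) as their nearest gene.

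Several of the regions lay close together in 1 place. At Sfi1, which encodes a centrin-binding protein of the centrosome, 9 of the 224 regions (4.02%) lay between bases 3126987 and 3180098 of chromosome 11. Their signal values were low, between 3.36 and 5.19 in KO with LPS and between 3.16 and 8.29 in untreated KO. WT peaks were close by, at 508 to 11240 bp, and the same stretch held 11 WT LPS NF-kB peaks and 0 of untreated WT. Both KO peaks were under 500 bp at 5 of the 9, and 5 held an IRF3 peak. Outside this stretch, 8 of the regions had another of the set within 100 kb. Without the 9 regions, 215 remained.

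The WT lists came close to some of the 224 regions and just touched others outside the set. The 3 regions nearest to a WT NF-kB peak lay 360 bp (nearest gene Gm10354), 459 bp (Gm21190) and 508 bp (Sfi1) from it. Just outside the set, 1 of the 1140 regions of both KO lists that held a WT peak did so through joining, with no direct overlap. Among those that overlapped directly, the 3 with the smallest overlap shared 148 bp (nearest gene D3Ertd751e), 150 bp (Sfi1) and 153 bp (Ankrd7) with a WT peak. With no WT NF-kB peak within 10 kb as a further condition, 195 regions remained in KO alone. The same condition on KO peaks left 52 in WT alone.

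Relative to genes, the 224 regions lay inside or near a gene span at about the share of the whole collection. Their share near an available start site was lower, a difference that was not tested. Inside a protein-coding gene span lay 72 of them (32.1%, interval 26.1 to 38.7), in 66 genes, against 29.7% of all 5605 regions, 26.8% of the 56 WT-alone regions and 29.9% of the 715 of all 4 lists. The gene table gives spans without exons, so exons, introns and untranslated parts were not separated. Within 10 kb of a protein-coding gene span lay 38.8% (32.4 to 45.6), against 39.8% of all regions, and 33.5% lay over 100 kb from any. Within 10 kb of an available start site lay 12 regions (5.36%, interval 2.798 to 9.17), against 9.88% of all regions, 7.14% of the WT-alone regions and 9.09% of the 715. The start sites were incomplete, with none for Ly96 or for protein-coding genes of chromosome 18. That chromosome held 14 of the 224 regions and 166 of all 5605, which were counted as not near a start. How far this lowered each share was not tested. No annotated protein-coding, lncRNA or pseudogene span was overlapped by 58.5% of them, against 62.0% of all regions. Chromosome X held 8.48%, against 9.74% of all regions. By chromosome, the share of regions that were in the set was lowest on chromosome 3, at 7 of 378 (1.85%), and highest on chromosome 18, at 14 of 166 (8.43%, interval 4.69 to 13.7), beside 4.00% overall. Chromosome 11, with the regions at Sfi1, had 13 of 176 (7.39%).

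IRF3, which the rule did not use, was listed at these regions more often in KO than in WT. A KO LPS IRF3 peak was at 72 of the 224 regions (32.1%, interval 26.1 to 38.7), beside 30.7% of all regions, and an untreated KO IRF3 peak at 67 (29.9%, 24.0 to 36.4), beside 28.3%. A WT LPS IRF3 peak was at 40 (17.9%, 13.1 to 23.5), beside 24.4% of all regions, and an untreated WT IRF3 peak at 19 (8.48%, 5.18 to 12.9), beside 20.3%. The KO shares were therefore near the background of all regions, and the WT shares were below it. That background includes regions with an IRF3 peak and no NF-kB peak. In the 4500 other regions with an NF-kB peak, the KO shares were 29.9% with LPS and 29.6% untreated. The WT shares there were 24.1% and 19.3%. Taking either treatment, 107 regions (47.8%, 41.1 to 54.5) had a KO IRF3 peak and 52 (23.2%, 17.9 to 29.3) a WT IRF3 peak, beside 41.8% and 33.5% of all regions. A KO IRF3 peak without a WT one was at 73 regions (32.6%; 21.5% of all regions), the reverse at 18 (8.04%; 13.2%), both at 34 (15.2%; 20.2%) and neither at 99 (44.2%; 45.0%). The IRF3 peaks were mid-ranked in their own lists, with median percentiles of 55.1 in KO with LPS, 55.9 in untreated KO, 60.3 in WT with LPS and 54.7 in untreated WT.

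In the full lists the 56 WT-alone regions had the opposite order for IRF3, but not at every setting. Of these regions, 18 (32.1%, interval 20.3 to 46.0) had a KO IRF3 peak and 25 (44.6%, 31.3 to 58.5) a WT IRF3 peak. In the 30 of them that were 1000 to 2000 bp wide both shares were 40%, and in the 9 of 2000 bp and above both were 66.7%. Regions of both KO lists that also had a WT LPS NF-kB peak had IRF3 more often than the 224 did, at 76.9% in KO and 48.2% in WT. Those with an untreated WT NF-kB peak instead had 68.2% and 42.4%, and the 715 of all 4 lists had 92.9% and 82.8%. The IRF3 and NF-kB libraries of a genotype and treatment come with 1 input, and the labels do not say how it was used. The part of a shared input in this agreement of factors was not tested.

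**Figure D5:**
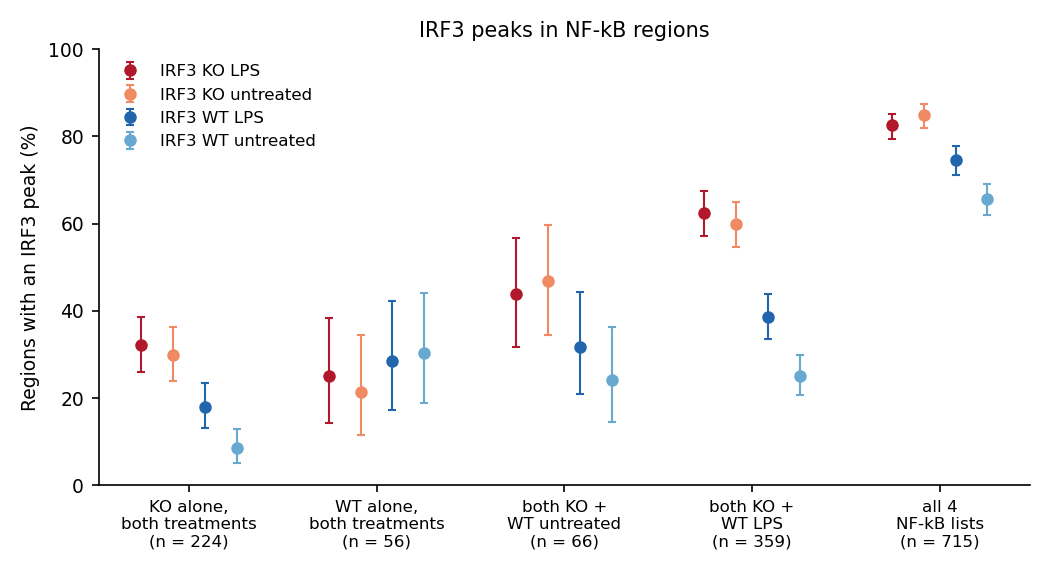
Share of regions with an IRF3 peak (vertical, percent) in each of the 4 IRF3 lists (colours) for 5 classes of NF-kB region (horizontal), with bars for exact 95% intervals that cover counting error only. In the KO-alone regions the shares fall in the order KO LPS 32.1%, KO untreated 29.9%, WT LPS 17.9% and WT untreated 8.48%.

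IRF3 was listed at a larger share of wide regions than of narrow ones, in the set as elsewhere. In regions of 1000 to 2000 bp, 59.8% of 112 had a KO IRF3 peak and 31.3% a WT one, against 61.7% and 43.4% of other NF-kB regions of that width. From 500 to 1000 bp the shares were 33.8% and 11.8% of 68, against 21.3% and 11.4%. Under 500 bp they were 8.70% and 8.70% of 23, against 2.54% and 3.24%. At 2000 bp and above they were 71.4% and 33.3% of 21, against 88.8% and 81.7%. In the set the median width was 878 bp without IRF3, 1253 bp with KO IRF3 alone and 1666 bp with IRF3 of both genotypes. It was 1536.5 bp with WT IRF3 alone. Joining itself makes a region wider when it holds more peaks. The KO LPS NF-kB peak had a median width of 666 bp without IRF3, 1029 bp with KO IRF3 alone, 718 bp with WT IRF3 alone and 975 bp with both. For the untreated KO peak these were 750, 1016, 1021.5 and 1021 bp.

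The order of KO over WT for IRF3 held in the KO-alone regions when the lists were made equal. With each IRF3 list at its 1169 best-ranked peaks, 35.3% (interval 29.0 to 41.9) of the 224 had a KO IRF3 peak and 19.6% (14.7 to 25.5) a WT one. With the NF-kB lists also at equal length, 56.3% (45.7 to 66.4) of 96 KO-alone regions had a KO IRF3 peak and 24 of them (16.7 to 34.9%) a WT one. In the 79 WT-alone regions of the same lists the shares were 38.0% (27.3 to 49.6) and 58.2% (46.6 to 69.2). With the NF-kB lists alone at equal length, the KO-alone regions had 63.5% and 28.1%, and the WT-alone regions 58.2% for both genotypes. With peaks of q-value under 0.05 alone in all 8 lists, 17 regions were called in KO alone, 16 of which overlapped a WT NF-kB peak of the full lists and 1 of which was in the set of 224. Of these 17, 17.6% had a KO IRF3 peak and 29.4% a WT one. The IRF3 lists in KO merge 3 and 2 samples and those in WT 2 and 3, so the number of merged samples is the same per genotype but not per treatment.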

How the data were processed

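The series holds 44 samples: 10 bisulfite, 8 ATAC-seq and 26 ChIP-seq, of which 12 were precipitated for NF-kB, 10 for IRF3 and 4 are inputs. Only the 8 deposited ChIP-seq peak lists were used here. Per the submitters' processing notes, reads were handled with build mm10 and a tool set of Picard 2.8.0, Trim Galore 0.4.5, MACS2 2.1.1, deepTools 3.5.0, HOMER 4.9, Bismark 0.22.3 and methylKit, with no role given. The aligner, peak-calling settings, merging of replicates and read depth are not stated. The deposited lists, in which each list merges a group's replicates, give per peak a signal value, used as a score of unstated normalization, and a p-value with its q-value, both as deposited. Their names hint at a program that combines replicates by rank. If so, the p-values and q-values describe agreement of ranks and not enrichment over input.

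Peaks were ranked within a list by p-value, then signal value, width and position. All 8 lists were joined at 1 bp overlap, and a region counted as listed when it held at least 1 peak of a list. Shares carry Clopper-Pearson 95% intervals (SciPy 1.17.1) and medians have order-statistic intervals. Gene spans and promoter windows came from RefSeq tables of GRCm38.p6. The promoter windows and start sites were incomplete, with none for protein-coding genes of chromosome 18. Distances are to the nearer annotated gene end unless a start site is named. Members and gene lists were chosen with earlier results of these data known. Of 191 listed symbols, 187 matched. Named regions were the 15 best-ranked with a gene within 100 kb, those with a listed gene within 10 kb, those within 1 kb of a gene end, the 10 best-ranked with both KO peaks under 500 bp, the 5 widest, the 3 nearest to a WT NF-kB peak and, outside the set, the 3 with the smallest overlap with one. The order of best-ranked regions used the worse of both KO percentiles. Joining and counting were tested on simulated data and checked against bedtools 2.31.1. The planned motif search over whole regions needs a genome sequence and was not run, so motifs were read only in promoter windows. Alternatives covered joining, thresholds, list length, peak width and distance.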

Additional observations from a re-analysis of the deposited data

How the results depend on the processing

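Settings that filter WT peaks call other regions, so their counts are not subsets of the 224. With peaks of q-value under 0.5, 114 regions were in KO alone, 46 of them in the set, and with q-value under 0.05, 17 were, 1 of them in the set. With NF-kB lists of equal length, with or without equal IRF3 lists, 96 were, 52 of them in the set. Without peaks under 500 bp, 167 were, of which 151 overlapped the set and 16 overlapped a WT NF-kB peak of the full lists. With q-value under 0.5 in the KO lists alone, 46 of the 224 remained. The share with a KO IRF3 peak (47.8%) moved to 17.6% at q-value under 0.05, 67.4% at q-value under 0.5 in KO alone, 63.5% with equal NF-kB lists, 35.3% with equal IRF3 lists and 56.3% with both. The share with a WT IRF3 peak (23.2%) moved to 15.8% at q-value under 0.5 and 29.4% at q-value under 0.05, where it exceeded the KO share, over 17 regions. The median width (1164.5 bp) moved to 875.5 bp without joining, 1480 bp at q-value under 0.5, 2433 bp at q-value under 0.05, 1483.5 bp at q-value under 0.5 in KO alone, 1518 bp without peaks under 500 bp and 1400 bp with equal lists, either way. At q-value under 0.05, 11.8% lay in a gene and 17.6% within 10 kb of one. With equal lists 0 listed genes had a region within 10 kb, against Ly96 in the full lists. The cause of each was not tested, apart from fewer peaks entering by construction. In the other settings, which included joining the NF-kB lists only, a 1 kb joining distance, no WT peak within 10 kb and leaving out Sfi1, these values stayed close. The equal IRF3 lists, direct IRF3 overlap and leaving out Sfi1 were chosen after seeing the data. No paired analysis was possible because each deposited list merges its replicates, and for the same reason no replicate could be left out. Read depth is unknown, so a WT peak that is not listed may be one that was not detectable.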
